A study of Homo sapiens with 12 samples.

Results

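The centromere and kinetochore genes described here are a fixed list of 39 symbols, matched to the gene column of 3 RNA tables that hold 58083 genes each. All 39 were found once by symbol, all 39 were tested in all 3 tables, and all had at least 6.82 FPKM (fragments per kilobase of transcript, scaled to the mapped fragments) in every condition. The cells were HEK 293T, an established line derived from human embryonic kidney. They received 1 µM PDP, a compound known here only by its code name, for 3 h, 24 h or 72 h, and the control received DMSO for 3 h, with 2 libraries of poly(A) RNA in each of these 4 groups. The series also holds a pull-down of G-quadruplexes, stacked structures that runs of guanine can form, from purified and annealed genomic DNA of the same line, with its input. The control column was the same in all 3 tables, since its values in the 24 h and 72 h tables were those of the 3 h table times a constant of 1.04 and 0.968. The 24 h and 72 h comparisons therefore share their control, and any change over time in culture cannot be told apart from a change with PDP.

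A kinetochore is built on the centromere each time a cell divides. Nucleosomes with the histone variant CENP-A carry a constitutive network of CENP proteins, the MIS12 complex joins that network to the NDC80 complex, and NDC80 holds the microtubules with help from the SKA complex. The spindle assembly checkpoint delays anaphase until the attachments are made, and the chromosomal passenger complex corrects wrong ones. Many of these genes are transcribed in a cell cycle wave that peaks late in the cycle. For such genes, fewer cells near mitosis and less RNA per cell cannot be told apart in bulk RNA.

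Each table gave 1 pooled FPKM for PDP and 1 for the control, which hides the separate libraries, so no replicate spread is given and their depth is unknown. A gene is called higher or lower when its q-value in the authors' deposited table for that time is under 0.05. Standard errors (SE) were derived as the log2 fold change over the deposited test statistic. That SE and the deposited p-value need not rest on the same spread. At 72 h NUF2 was called with a p-value of 0.0117 in the authors' deposited table although its SE of 0.73 was close to its log2 fold change of 0.84. The labels number the libraries bio1 and bio2 but do not say whether they came from separate cultures. The p-values therefore speak only for these samples, and whether they cover variation between cultures is unknown.

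Promoter sequences are shown first for the 3 members called lower at both 24 h and 72 h (MIS12, CDCA8 and ZWINT), for the member with the largest fall at 72 h (SKA3) and for the pair with the largest rises at 72 h (CENPC and BUB1B). Each is the 250 bases before the RefSeq gene start on GRCh38.p14, 5′ to 3′ on the gene's strand. Capitals mark matches on either strand to the cell cycle genes homology region (TTTGAA or TTCGAA), to the CCAAT box, or to an E2F motif (TTTCCCGC or TTTGGCGC). MIS12 and ZWINT have more than 1 listed start, and the window of the first listed one is shown.
MIS12 (chr17:5486124-5486373, plus strand): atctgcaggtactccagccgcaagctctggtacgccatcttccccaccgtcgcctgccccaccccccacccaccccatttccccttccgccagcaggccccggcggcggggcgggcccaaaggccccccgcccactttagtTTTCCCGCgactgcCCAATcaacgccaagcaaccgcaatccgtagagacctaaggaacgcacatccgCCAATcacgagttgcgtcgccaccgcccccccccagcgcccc
CDCA8 (chr1:37692266-37692515, plus strand): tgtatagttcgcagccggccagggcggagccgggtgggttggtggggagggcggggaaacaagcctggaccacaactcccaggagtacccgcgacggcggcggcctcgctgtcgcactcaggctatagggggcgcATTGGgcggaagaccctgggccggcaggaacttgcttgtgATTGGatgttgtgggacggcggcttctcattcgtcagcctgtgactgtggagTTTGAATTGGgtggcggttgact
ZWINT (chr10:56361260-56361509, minus strand): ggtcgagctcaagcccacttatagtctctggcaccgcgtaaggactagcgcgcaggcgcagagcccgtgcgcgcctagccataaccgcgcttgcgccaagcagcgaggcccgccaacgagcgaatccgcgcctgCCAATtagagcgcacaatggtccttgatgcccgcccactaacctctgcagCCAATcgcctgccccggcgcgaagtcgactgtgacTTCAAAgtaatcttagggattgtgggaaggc
SKA3 (chr13:21176553-21176802, minus strand): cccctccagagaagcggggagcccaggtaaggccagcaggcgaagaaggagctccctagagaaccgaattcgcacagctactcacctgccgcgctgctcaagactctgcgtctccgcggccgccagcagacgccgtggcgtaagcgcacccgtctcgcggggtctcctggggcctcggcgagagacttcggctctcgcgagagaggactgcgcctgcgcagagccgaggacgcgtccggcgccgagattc
CENPC (chr4:67545504-67545753, minus strand): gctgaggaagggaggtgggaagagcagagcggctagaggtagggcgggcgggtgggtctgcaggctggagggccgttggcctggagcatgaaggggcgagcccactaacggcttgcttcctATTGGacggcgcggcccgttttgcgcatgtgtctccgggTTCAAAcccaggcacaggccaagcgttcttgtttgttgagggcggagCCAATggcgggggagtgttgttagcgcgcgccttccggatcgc
BUB1B (chr15:40160819-40161068, plus strand): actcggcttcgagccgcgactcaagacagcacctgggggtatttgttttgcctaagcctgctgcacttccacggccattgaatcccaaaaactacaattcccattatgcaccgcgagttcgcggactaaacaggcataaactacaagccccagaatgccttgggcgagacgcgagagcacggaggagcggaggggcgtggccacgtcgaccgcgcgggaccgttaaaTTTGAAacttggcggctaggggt
In CDCA8 the sequence TTTGAA began 23 bases before the start and CCAAT matches began 115, 75 and 18 bases before it, so the last CCAAT match overlapped TTTGAA. BUB1B also held TTTGAA 23 bases before its start, with no CCAAT match in the window. ZWINT held the homology region 31 bases before its start and CCAAT matches at 116 and 66 bases. MIS12 held no match to the homology region, CCAAT matches at 95 and 42 bases and an E2F match at 109 bases. None of these motifs was found in the SKA3 window. These are matches of letters and not mapped binding sites.

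The table of promoters held 33 of the 39 members, CENPJ among them under its current symbol CPAP. Of these 33, 8 members (24.2%) had a match to the homology region in a listed window, against 17.2% of the 27305 genes in the table and 13.1% of the 9459 genes in it that were expressed. The CCAAT box was matched in 19 members (57.6%), against 37.0% of all genes in the table and 42.4% of expressed ones, and an E2F motif in 2 members (6.06%), against 2.36% of all genes in the table and 4.05% of expressed ones. Of the 6 members called lower at 24 h that had a promoter, all 6 had a CCAAT match and 3 had the homology region. Of the 27 that were not called, 13 had a CCAAT match and 5 the homology region. At 72 h the homology region was found in 2 of 3 members called higher, 2 of 7 called lower and 4 of 23 not called. The CCAAT box was found there in 1 of 3 called higher, 5 of 7 called lower and 13 of 23 not called. A pattern of 4 runs of at least 3 G with loops of 1 to 7 bases, searched on both strands, was present in 7 members (21.2%), against 26.3% of genes in the table and 40.6% of expressed ones.

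At 3 h no centromere or kinetochore gene was called. The authors' deposited table called 0 of 39, and 0 had an unadjusted p-value under 0.05. Of the 14751 genes tested, 0.108% were called higher, 0.00678% lower and 0.115% in either direction, and of the 8438 genes within the members' range of control FPKM 0.107% were called higher, 0.0119% lower and 0.119% in either direction. Log2 fold changes ran from -0.27 (CENPW, a histone-fold protein of the CENP-T complex) to 0.23 (CENPO), with a median of -0.013, against -0.0036 for all expressed genes. CENPA, the centromeric histone itself, had 29.1 FPKM with PDP and 29.7 FPKM in the control. The median SE of the members at 3 h was 0.32, larger than any of these changes.

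At 24 h every called member was lower with PDP. The authors' deposited table called 7 members lower and 0 higher, and 11 had an unadjusted p-value under 0.05, all 11 of them below 0. Unadjusted p-values were not counted over all tested genes at any time, so such counts cannot be read as a trait of the members. Lower calls made up 17.9% of the members, against 8.29% of all 15385 genes tested and 13.4% of the 8432 tested genes whose control FPKM lay within the members' range. Higher calls made up 9.21% of all genes tested and 3.94% of those in the same range, and calls in either direction 17.5% and 17.3%. The median log2 fold change of the members was -0.28, against -0.031 for expressed genes. Of 39 members, 32 lay below 0, 29 lay below the median of expressed genes, and 22 lay below 0 when both conditions were scaled to equal FPKM sums, which adds 0.17 to every gene. The 7 called members lay below 0 under each scaling.

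At 72 h the members spread in both directions. The authors' deposited table called 7 lower and 4 higher, and 14 had an unadjusted p-value under 0.05, a count not made over all tested genes. Lower calls made up 17.9% of members, against 12.8% of the 15423 genes tested and 17.6% of tested genes in the members' range of control FPKM. Higher calls made up 10.3% of members, against 19.0% of all genes tested and 15.8% of those in the range, and calls in either direction made up 31.8% of all genes tested and 33.4% in the range. The share called lower was thus close to that of tested genes in this wide range (6.96 to 191.5 FPKM in the control). The share called higher was below that of the range, but it rests on 4 members and the difference was not tested. The median log2 fold change was 0.019, against 0.11 for expressed genes. Equal FPKM sums would subtract 0.10 from every gene at this time. The median of the members then becomes -0.085, with 18 of 39 above 0 in place of 21, and the 11 called members keep their direction. Over both later times 15 of 39 members were called at least once and 24 were called in no table. Of the 15, 3 were lower at both times, 4 were lower at 24 h alone, 4 were lower at 72 h alone and 4 were higher at 72 h alone, and 0 were called in opposite directions. The matching counts over all tested genes were not made, so these counts cannot be read as a trait of the members. The 24 h and 72 h comparisons share their control, so their calls are not independent.

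**Figure D1:**
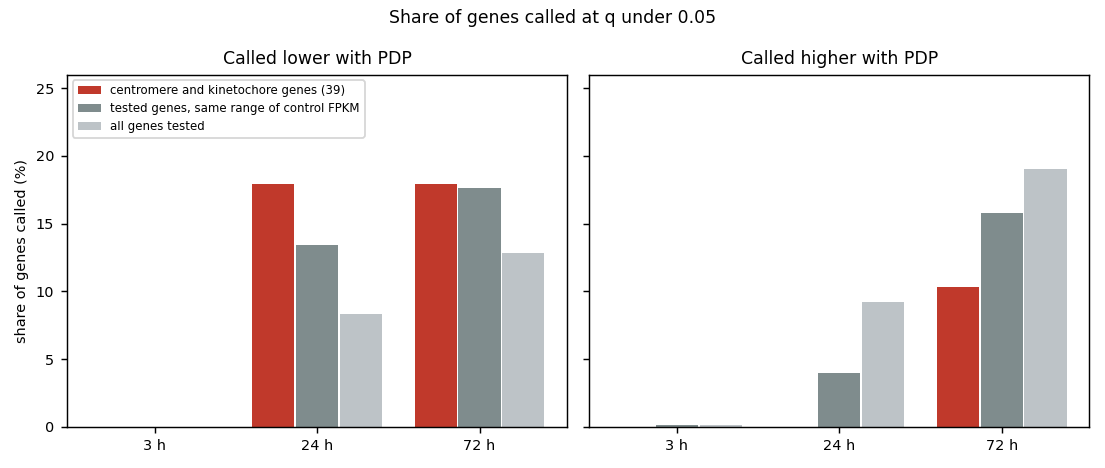
Share of genes called lower (left) and higher (right) with PDP at each time, in percent, for the 39 centromere and kinetochore genes (red), tested genes whose control FPKM lies in the same range (dark grey) and all genes tested (light grey). The members stand at 17.9% called lower at both 24 h and 72 h, and at 10.3% called higher at 72 h, below the 19.0% of all genes.

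**Figure D2:**
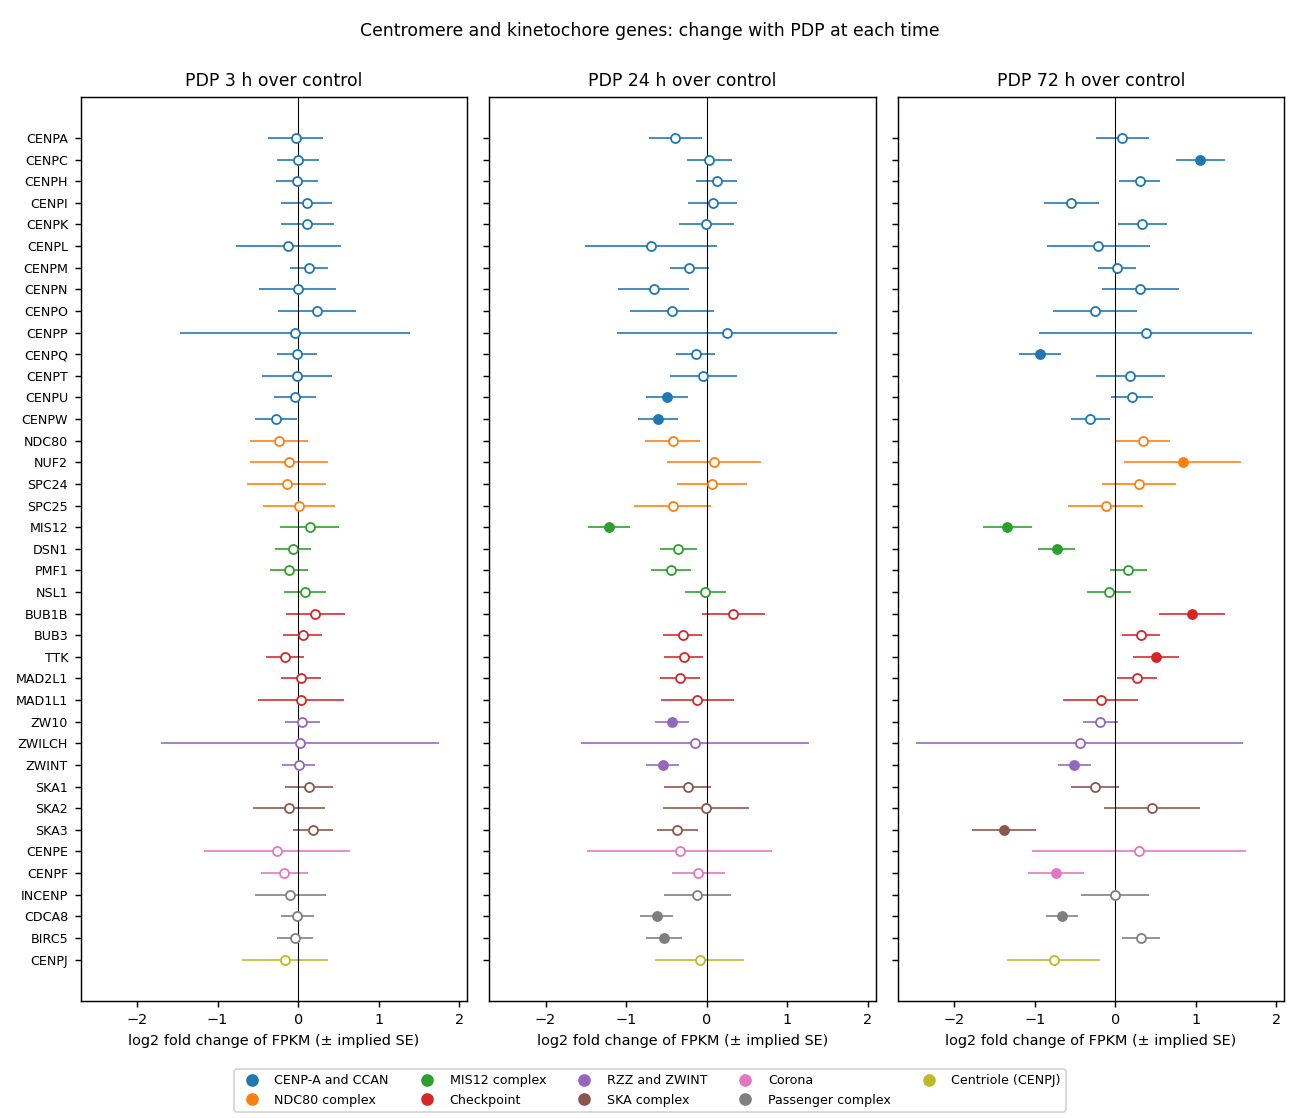
Log2 fold change of pooled FPKM, PDP over control, for each of the 39 members at 3 h, 24 h and 72 h, with bars of 1 SE implied by the deposited statistic. Colours give the subcomplex and filled points are members called at q under 0.05. No point is filled at 3 h, and MIS12 lies farthest to the left at 24 h and SKA3 at 72 h.

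The MIS12 complex, a rod of 4 subunits between the centromere and the microtubule-binding layer, held the largest fall at 24 h. MIS12 (ENSG00000167842.15, in a GRCh38 locus at chr17:5471251-5490814), the subunit that names the complex, had 36.8 FPKM with PDP and 33.4 FPKM in the control at 3 h. At 24 h it had 14.96 FPKM with PDP and 34.7 FPKM in the control, a log2 fold change of -1.21 (SE 0.26, q = 0.000908 in the authors' deposited table). At 72 h it had 12.8 FPKM with PDP and 32.3 FPKM in the control, a log2 fold change of -1.34 (SE 0.31, q = 0.000393 in the authors' deposited table). MIS12 thus fell at both later times to well under its control level. Its locus also holds DERL2, an endoplasmic reticulum protein gene. DERL2 had 14.6 FPKM with PDP against 27.4 FPKM in the control at 24 h, and 15.4 FPKM with PDP against 25.6 FPKM in the control at 72 h, and was called at neither time. Whether reads were shared between these 2 genes was not tested.

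DSN1, the subunit through which Aurora B regulates the complex's binding to the inner centromere, had 22.4 FPKM with PDP and 28.6 FPKM in the control at 24 h, and was not called (q = 0.111 in the authors' deposited table). It fell at 72 h, to 16.2 FPKM with PDP against 26.7 FPKM in the control (log2 fold change -0.72, SE 0.23). PMF1, also known as NNF1, had 35.5 FPKM with PDP and 48.2 FPKM in the control at 24 h, just outside the threshold (q = 0.0564 in the authors' deposited table). At 72 h PMF1 had 50.4 FPKM with PDP and 45.0 FPKM in the control. Its locus includes the read-through gene PMF1-BGLAP, whose reads may not be separable from those of PMF1. NSL1 had 29.8 FPKM with PDP against 30.1 FPKM in the control at 24 h and 26.6 FPKM with PDP against 28.1 FPKM in the control at 72 h, and was called at neither time. Of the 4 subunits, 2 were thus called lower at 72 h, with log2 fold changes over the complex from -1.34 to 0.16. Among tested genes in the members' FPKM range 17.6% were called lower at that time.

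Of the 14 genes of the CENP-A nucleosome and the constitutive network, 2 (14.3%) were called lower and 0 higher at 24 h, close to the 13.4% called lower among genes in the members' FPKM range, with a median log2 fold change of -0.18, and at 72 h 1 was called in each direction, with a median of 0.14. CENPA had 23.5 FPKM with PDP and 30.9 FPKM in the control at 24 h, and 30.6 FPKM with PDP against 28.8 FPKM in the control at 72 h, and was called at neither time. SLC35F6, which shares the CENPA locus, had 8.42 FPKM with PDP and 14.3 FPKM in the control at 24 h, and 5.00 FPKM with PDP against 13.3 FPKM in the control at 72 h, and was called lower at both times in the authors' deposited tables, though its part in the CENPA values was not tested. Over the 3 times the members closest to CENPA, by the summed absolute difference of the log2 fold changes, were PMF1 (0.212), CENPU (0.230) and SPC25 (0.278). These sums are smaller than the SE of CENPA's own fold change at 24 h (0.33), and the tables share their control.

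CENPC (ENSG00000145241.10, chr4:67468748-67545606), which ties CENP-A nucleosomes to the MIS12 complex, was the only one of the 14 called higher in any table. It had 10.0 FPKM with PDP and 9.79 FPKM in the control at 24 h. At 72 h it rose to 18.9 FPKM with PDP, against 9.11 FPKM in the control (log2 fold change 1.06, SE 0.30, q = 0.000393 in the authors' deposited table). It was the only member called higher with a log2 fold change of at least 1 at 72 h, and it shares its locus with no other gene. Its pseudogene CENPCP1 had at most 0.0536 FPKM in any condition.

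CENPQ, part of the subcomplex of CENP-O, CENP-P, CENP-Q and CENP-U, moved the other way at 72 h, with 7.18 FPKM with PDP and 13.7 FPKM in the control (log2 fold change -0.93, SE 0.26). Its partner CENPU, a docking platform for Polo-like kinase 1, fell at 24 h to 28.2 FPKM with PDP against 39.6 FPKM in the control (-0.49, SE 0.27). At 72 h CENPU had 42.7 FPKM with PDP and 36.9 FPKM in the control, and was not called. Of the other partners, CENPO had log2 fold changes of -0.44 at 24 h and -0.25 at 72 h, and CENPP of 0.25 and 0.38. CENPP had SEs of 1.37 and 1.32 in a locus of 10 genes, so a change of the size seen in CENPQ could not have been resolved there.

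In the histone-fold branch, CENPW fell at 24 h to 34.2 FPKM with PDP against 52.1 FPKM in the control (-0.61, SE 0.25, q = 0.00538 in the authors' deposited table). At 72 h CENPW had 39.2 FPKM with PDP and 48.5 FPKM in the control. CENPT, which recruits NDC80 through its long tail, had 44.7 FPKM with PDP and 46.1 FPKM in the control at 24 h, and 49.0 FPKM with PDP against 43.0 FPKM in the control at 72 h. CENPW and its binding partner CENPT thus differed in whether they were called at 24 h, although the difference between the 2 genes was not tested.

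The central subunits CENPH, CENPI, CENPK and CENPM were not called at either later time. CENPH and CENPK had log2 fold changes of 0.30 and 0.33 at 72 h. CENPM, a GTPase-like subunit, had 40.4 FPKM with PDP and 46.9 FPKM in the control at 24 h, and 44.4 FPKM with PDP against 43.8 FPKM in the control at 72 h. CENPI had 11.8 FPKM with PDP and 17.3 FPKM in the control at 72 h, outside the threshold (q = 0.0623 in the authors' deposited table). CENPN, which reads the CENP-A nucleosome, had 16.7 FPKM with PDP and 26.4 FPKM in the control at 24 h (-0.66, SE 0.44, q = 0.121 in the authors' deposited table). Its partner CENPL had 8.997 FPKM with PDP and 14.5 FPKM in the control (-0.69, SE 0.82, q = 0.358 in the authors' deposited table). Both pooled differences were as large as that of CENPW, with wider errors, and at 72 h CENPN had 30.5 FPKM with PDP and 24.6 FPKM in the control.

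The NDC80 complex, which binds microtubules, had 0 of 4 members called at 24 h and 1 at 72 h. In the members' FPKM range 17.3% of tested genes were called in either direction at 24 h and 33.4% at 72 h. NUF2, the partner of NDC80 in the microtubule-binding head, had 31.8 FPKM with PDP and 29.9 FPKM in the control at 24 h. It rose at 72 h to 49.9 FPKM with PDP against 27.9 FPKM in the control (0.84, SE 0.73, q = 0.0393 in the authors' deposited table). NUF2 lies in a locus of 6 genes with 2 expressed entries of RGS5. At 72 h 1 entry had 10.2 FPKM with PDP against 6.15 FPKM in the control. The other had 13.7 FPKM with PDP against 5.63 FPKM in the control. Neither entry was called, and whether reads were shared with NUF2 was not tested. NDC80 itself had 12.9 FPKM with PDP and 17.3 FPKM in the control at 24 h, and 20.5 FPKM with PDP against 16.1 FPKM in the control at 72 h. Of the anchoring pair, SPC24 had log2 fold changes of 0.06 at 24 h and 0.29 at 72 h, and SPC25 had 21.2 FPKM with PDP and 28.5 FPKM in the control at 24 h and 24.4 FPKM with PDP against 26.5 FPKM in the control at 72 h. At 72 h 3 of 4 subunits lay above 0 and the median was 0.32, whereas 3 of 4 MIS12 subunits lay below 0 with a median of -0.40. The difference between these complexes was not tested.

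**Figure D3:**
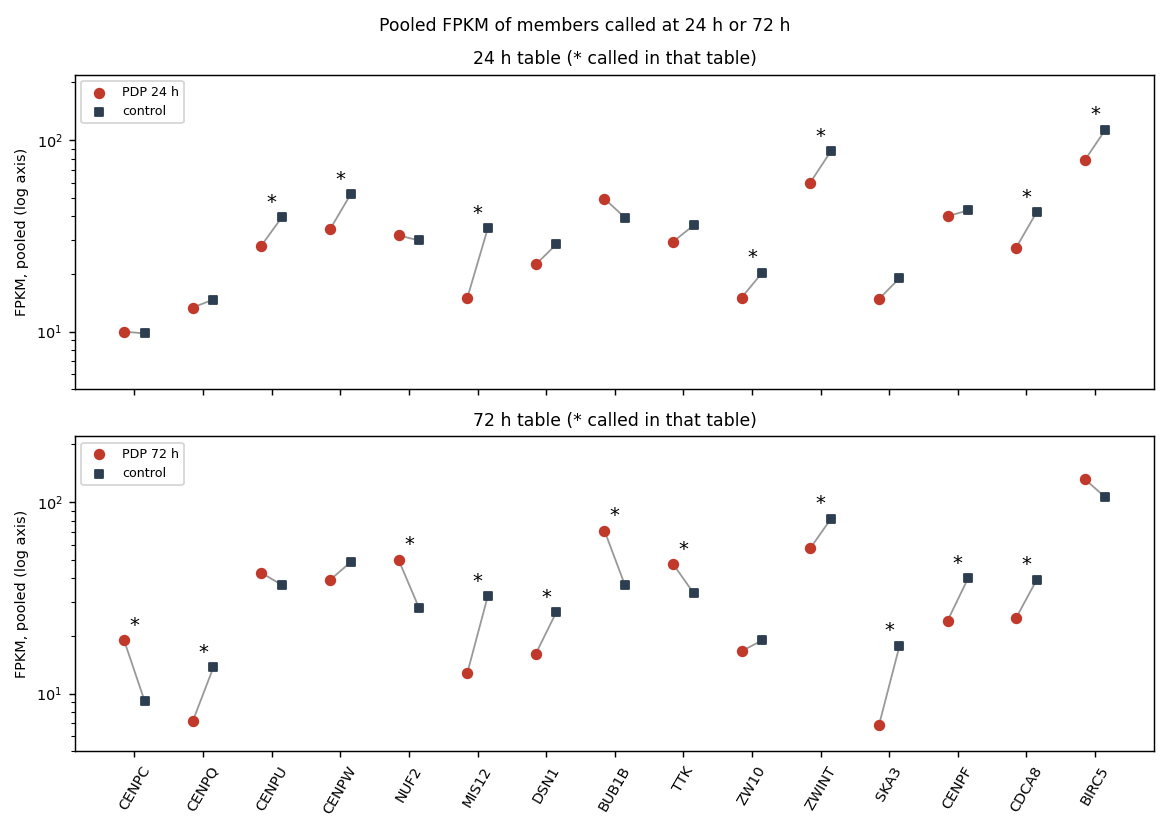
Pooled FPKM on a log axis for the 15 members called at 24 h or 72 h, with PDP (red circles) left of the control (dark squares) for each gene, in the 24 h table (top) and the 72 h table (bottom); asterisks mark calls in that table. MIS12, ZWINT and CDCA8 lie below their control with an asterisk in both panels, and CENPC, NUF2, BUB1B and TTK lie above it with an asterisk at 72 h.

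Of the 5 spindle assembly checkpoint genes, 0 were called at 24 h, and BUB1B and TTK were called higher at 72 h in the authors' deposited table, where 19.0% of all genes tested and 15.8% of those in the members' FPKM range were called higher. BUB3, MAD2L1 and MAD1L1 were not called, and the median log2 fold change at 72 h was 0.32. BUB1B, which encodes BubR1, a part of the inhibitor of the anaphase-promoting complex, rose to 71.0 FPKM with PDP against 36.7 FPKM in the control (0.95, SE 0.41, q = 0.00541 in the authors' deposited table). BUB1B was also the only checkpoint member above 0 at 24 h, with 49.5 FPKM with PDP and 39.4 FPKM in the control, though MAD1L1 also lies above 0 with equal FPKM sums. TTK, the kinase MPS1 that starts checkpoint signalling, had 29.5 FPKM with PDP and 35.9 FPKM in the control at 24 h, and was not called. TTK rose at 72 h to 47.5 FPKM with PDP against 33.4 FPKM in the control (0.51, SE 0.29, q = 0.0400 in the authors' deposited table).

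BUB3, the most abundant member per length, which carries BUB1 and BubR1 to the kinetochore, had 167.4 FPKM with PDP and 205 FPKM in the control at 24 h. At 72 h BUB3 had 239.7 FPKM with PDP and 191.5 FPKM in the control. MAD2L1, the MAD2 protein that captures CDC20, had 90.9 FPKM with PDP and 114 FPKM in the control at 24 h, and 129 FPKM with PDP against 106 FPKM in the control at 72 h. Neither was called. MAD1L1, the MAD1 scaffold for MAD2, had log2 fold changes of -0.11 and -0.18 at the later times. The pooled values of BUB3, TTK and MAD2L1 lay below the control at 24 h and above it at 72 h, as did those of 15 of the 39 members as deposited, of 9 with equal FPKM sums and of 10 with the median of expressed genes set to 0, and no test of that turn could be made.

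ZW10 and ZWILCH belong to the RZZ complex, which brings dynein and MAD1 to the kinetochore. Of ZW10, ZWILCH and ZWINT, the authors' deposited table called 2 lower at 24 h and 1 lower at 72 h. Among tested genes in the members' FPKM range, lower calls made up 13.4% at 24 h and 17.6% at 72 h. ZWINT (ENSG00000122952.16, chr10:56357228-56361275), which binds KNL1 and helps to hold ZW10 there, fell at 24 h to 60.1 FPKM with PDP against 87.6 FPKM in the control (-0.54, SE 0.20, q = 0.000908 in the authors' deposited table). At 72 h ZWINT had 57.3 FPKM with PDP and 81.7 FPKM in the control (-0.51, SE 0.20, q = 0.00291 in the authors' deposited table). ZW10 fell at 24 h to 15.1 FPKM with PDP against 20.3 FPKM in the control (-0.43, SE 0.22), and at 72 h had 16.7 FPKM with PDP against 19.0 FPKM in the control. ZWILCH had 24.0 FPKM with PDP and 26.5 FPKM in the control at 24 h, and 18.2 FPKM with PDP against 24.7 FPKM in the control at 72 h. Its SE reached 2.03 in a locus shared with the ribosomal protein gene RPL4, which had 3682 FPKM with PDP and 2678 FPKM in the control at 72 h, so ZWILCH values are uncertain.

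The SKA complex, which steadies microtubule attachments, had 0 of 3 members called at 24 h and 1 at 72 h. Calls in either direction made up 17.3% of tested genes in the members' FPKM range at 24 h and 33.4% at 72 h. SKA3 (ENSG00000165480.15, chr13:21153595-21176602) had 14.8 FPKM with PDP and 19.0 FPKM in the control at 24 h. At 72 h SKA3 fell to 6.82 FPKM with PDP against 17.7 FPKM in the control, a log2 fold change of -1.38 (SE 0.40, q = 0.000393 in the authors' deposited table), the largest fall of any member at that time. SKA1, which binds microtubules in the same complex, had 10.2 FPKM with PDP and 12.2 FPKM in the control at 72 h. SKA2 had 63.3 FPKM with PDP and 63.5 FPKM in the control at 24 h, and 81.1 FPKM with PDP against 59.1 FPKM in the control at 72 h (0.46, SE 0.60), in a locus of 13 genes. Neither was called, so only SKA3 was called in this complex.

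Of the corona proteins that coat unattached kinetochores, CENPF, a large coiled-coil protein that binds dynein regulators, fell at 72 h to 24.0 FPKM with PDP against 40.0 FPKM in the control (-0.74, SE 0.35, q = 0.00431 in the authors' deposited table). CENPE, a kinesin motor, had 13.2 FPKM with PDP and 16.7 FPKM in the control at 24 h and 19.0 FPKM with PDP against 15.5 FPKM in the control at 72 h, with SEs of 1.15 and 1.32.

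In the chromosomal passenger complex, the authors' deposited table called 2 of 3 members lower at 24 h and 1 lower at 72 h. Among tested genes in the members' FPKM range, 13.4% were called lower at 24 h and 17.6% at 72 h. CDCA8 (ENSG00000134690.10, chr1:37692418-37709719), which encodes Borealin, fell to 27.4 FPKM with PDP against 42.2 FPKM in the control (-0.62, SE 0.20, q = 0.000908 in the authors' deposited table). BIRC5, which encodes Survivin, fell to 78.5 FPKM with PDP against 113 FPKM in the control (-0.53, SE 0.23). At 72 h they differed in call. CDCA8 stayed lower, with 24.8 FPKM with PDP and 39.3 FPKM in the control (-0.66, SE 0.20), while BIRC5 had 132 FPKM with PDP and 106 FPKM in the control and was not called (q = 0.122 in the authors' deposited table). INCENP, the scaffold of the complex, had 60.4 FPKM with PDP and 65.5 FPKM in the control at 24 h and 61.1 FPKM in both at 72 h. INCENP was called at neither time. AURKB, the kinase of the complex and not in the list of 39, had 102 FPKM with PDP and 118 FPKM in the control at 24 h, and rose at 72 h to 170.0 FPKM with PDP against 110 FPKM in the control.

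CENPJ shares the CENP prefix but acts at the centriole. It had 12.7 FPKM with PDP and 13.5 FPKM in the control at 24 h, and 7.41 FPKM with PDP against 12.6 FPKM in the control at 72 h (-0.76, SE 0.58, q = 0.113 in the authors' deposited table). It was called in no table.

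**Figure D4:**
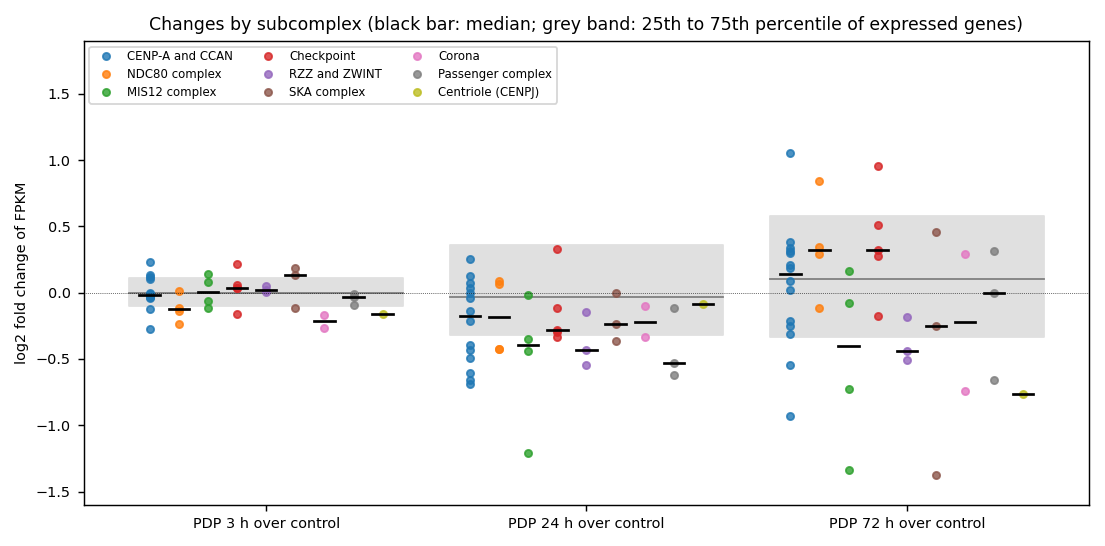
Log2 fold change of each member by subcomplex at 3 h, 24 h and 72 h, PDP over control; each point is 1 gene, black bars are medians, the grey line is the median of expressed genes and the grey band their 25th to 75th percentile. At 72 h the NDC80 and checkpoint medians (both 0.32) lie above the medians of MIS12 (-0.40) and of RZZ with ZWINT (-0.44). The checkpoint median is the value of BUB3, and that of RZZ with ZWINT is the value of ZWILCH (SE 2.03). Neither gene was called. The differences between subcomplexes were not tested, and the median of expressed genes was 0.11.

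Centromere and kinetochore genes outside the list were counted the same way. Of 25 such genes, the authors' deposited tables called 0 at 3 h, 3 lower and 0 higher at 24 h, and 4 lower and 4 higher at 72 h, with medians of -0.28 at 24 h and 0.096 at 72 h. Lower calls thus made up 12.0% at 24 h, against 8.29% of all genes tested and 13.4% of those in the members' FPKM range. At 72 h they made up 16.0%, against 12.8% and 17.6%, and higher calls 16.0%, against 19.0% and 15.8%. These shares were near those of tested genes in the members' FPKM range. CENPB, which binds a DNA motif in alpha satellite repeats, fell at 24 h to 15.8 FPKM with PDP against 24.4 FPKM in the control, and at 72 h to 8.26 FPKM with PDP against 22.8 FPKM in the control. MAD2L1BP, the p31comet protein that helps to switch the checkpoint off, fell to 22.2 FPKM with PDP against 39.1 FPKM in the control at 24 h, and to 13.4 FPKM with PDP against 36.5 FPKM in the control at 72 h. CDC20, the checkpoint's target, fell at 24 h alone, to 82.2 FPKM with PDP against 122 FPKM in the control. HASPIN (GSG2 in the tables), the kinase whose histone mark recruits the passenger complex, fell at 72 h to 5.77 FPKM with PDP against 13.6 FPKM in the control, and CENPX (STRA13 in the tables) to 35.2 FPKM with PDP against 55.1 FPKM in the control. PTTG1, which encodes securin, rose at 72 h to 248 FPKM with PDP against 114 FPKM in the control, and HJURP, the chaperone that loads CENP-A, to 42.1 FPKM with PDP against 25.1 FPKM in the control. BUB1, the checkpoint kinase related to BUB1B, rose to 82.5 FPKM with PDP against 52.5 FPKM in the control.

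Cell cycle genes were counted in the same tables, beside shares over all genes tested of 8.29% lower and 9.21% higher at 24 h, and of 12.8% lower and 19.0% higher at 72 h. Of 9 genes of mitosis and proliferation, the authors' deposited tables called 5 lower and 0 higher at 24 h (median -0.41) and 4 higher and 1 lower at 72 h (median 0.40). CCNB1, a mitotic cyclin, was called lower at both times, with log2 fold changes of -0.80 at 24 h and -0.88 at 72 h. CCNA2, AURKA and UBE2C were also called lower at 24 h (-0.61, -0.57 and -0.47), and CCNA2 and AURKA were not called at 72 h (0.02 and -0.21). TOP2A, CDK1 and PLK1 were called higher at 72 h (1.00, 0.80 and 0.77). PLK1 and UBE2C were called in opposite directions at the 2 times. PLK1 had 68.3 FPKM with PDP and 90.8 FPKM in the control at 24 h, and 144 FPKM with PDP against 84.8 FPKM in the control at 72 h.

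Of 12 genes of replication licensing and S phase, 5 were called lower and 0 higher at 24 h, and 9 lower and 1 higher at 72 h, with medians of -0.36 and -0.55. At 72 h the median was thus below 0 for these genes and above 0 for the mitosis genes, while that of the members was 0.019. The largest called changes at 24 h were those of CCNE2 (-0.86), CDC6 (-0.80), PCNA (-0.59) and MCM6 (-0.42). At 72 h they were those of CDC6 (-1.41), CDT1 (1.14), CCNE2 (-1.10) and MCM6 (-0.95).

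Among 12 regulators of cell cycle transcription, 4 were called lower and 1 higher at 24 h, and 4 lower and 2 higher at 72 h. E2F1 fell at 24 h to 19.2 FPKM with PDP against 30.2 FPKM in the control, and at 72 h to 15.6 FPKM with PDP against 28.2 FPKM in the control. LIN9, a subunit of the MuvB complex that binds the homology region through LIN54, fell to 14.2 FPKM with PDP against 23.4 FPKM in the control at 24 h, and to 12.0 FPKM with PDP against 21.8 FPKM in the control at 72 h. LIN54 itself was called at neither time, with log2 fold changes of 0.04 at 24 h and 0.20 at 72 h. The MuvB subunits LIN37 and LIN52 were not called either. CDKN1A, a cyclin-dependent kinase inhibitor, rose to 13.9 FPKM with PDP against 8.78 FPKM in the control at 24 h, and to 17.8 FPKM with PDP against 8.20 FPKM in the control at 72 h. E2F4 and TFDP1 were called lower at both times. E2F4 had 39.5 FPKM with PDP and 56.4 FPKM in the control at 24 h, and TFDP1 57.2 FPKM with PDP against 98.0 FPKM in the control at 72 h. MYBL2, a transcription factor that joins MuvB, was called higher at 72 h, with 99.0 FPKM with PDP and 78.1 FPKM in the control. The part of these genes in the members' changes was not tested.

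Fewer of the members' loci held a pull-down peak than of loci with an expressed gene, without a test of the difference. The authors' list of 51446 peaks, each found in both pull-down replicates, placed 45 peak centres in the loci of the members, in 12 of 39 loci (30.8%), against 56.1% of the 10241 loci with an expressed gene. Loci of the RNA tables can hold several genes, and 20 of 39 members shared theirs. The density was 1.19 peaks per 100 kb in member loci, against 1.96 in all loci with an expressed gene. Of 19 members alone in their locus, 2 had a peak: CENPI with 3 and CENPK with 1. The density there was 0.630 per 100 kb, against 1.95 in 4108 loci that held a single expressed gene, of which 36.5% had a peak. The 4 peaks are too few for a density to be read closely.

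Within 2 kb of a locus end, 2 of 39 members (5.13%) had a peak centre, against 9.48% of 13386 expressed genes. The end on the start side of the gene was used, and both ends where no strand was listed, which can raise these shares. In a shared locus that end need not be the start of the gene. With starts from RefSeq it was 2 of 33 (6.06%), against 8.84% of 9459 genes. Both settings found CENPI and DSN1. The peak by CENPI (chrX:101098893-101099295) was centred 1964 bases before its RefSeq start with a score of 24.2, and the peak by DSN1 (chr20:36775479-36775881) 1917 bases before its start with a score of 8.815, where the median score in the authors' list was 10.96. None of the 33 members had a peak centre within 1 kb of its RefSeq start, against 3.38% of expressed genes. Counted from locus ends, 1 of 39 members (2.56%) did, against 3.83% of expressed genes. This was CENPI, whose RefSeq start lies 2840 bases from its locus end. MIS12, CDCA8, ZWINT and SKA3, which were lower in the RNA, had 0 peaks in their loci and none within 2 kb of their starts. Of the 11 members called lower at 24 h or 72 h, 3 had a peak in their locus (CENPU 2, ZW10 1 and CENPF 1), and DSN1, lower at 72 h, is one of the pair with a peak near the start. Of the 4 called higher at 72 h, 2 had a peak in their locus, and of the 24 called in no table, 7 did. The pull-down was made on purified and annealed DNA, so the peaks do not show binding in cells.

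As a check of the cells, 5 of 6 genes known in this line (KRT8, KRT18, VIM, NEFM and NEFL) had 17.0 FPKM or more in every control column, and PAX2 had 0.868 to 0.930 FPKM. The authors' deposited tables called KRT8, NEFM, NEFL and PAX2 higher at 24 h, when every called member was lower, with log2 fold changes of 0.51, 1.10, 1.02 and 1.71. At 72 h they called these 4 and VIM higher, and NEFL had 102 FPKM with PDP and 22.4 FPKM in the control. Their part in the members' values was not tested. Of 6 genes of other cell types, PTPRC, ALB, COL1A2, PECAM1 and CD3E stayed at or under 0.389 FPKM in every condition. COL1A1 had 9.91 to 23.0 FPKM with PDP and 12.2 to 13.0 FPKM in the control, and was called at no time.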

How the data were processed

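RNA was measured in 8 libraries of poly(A) RNA made with a stranded kit, and pull-down and input DNA in 4, per the labels. Tools listed in the submitters' processing notes, without settings, are HISAT2 2.0.5 and Cufflinks 2.2.1, which handle RNA reads, and Bowtie2 2.2.9, Trim Galore 0.4.4, HOMER 4.9.1, SAMtools 1.3.1 and Picard, with GRCh38.p7. Per the file headers, the deposited FPKM are pooled per condition, with the columns of a Cuffdiff gene test. The deposited p-value and q-value are the authors' own. The deposited test statistic, a score, served only to derive an SE. The deposited peak score is a mean over both replicates in an unstated unit. The use of strand in counting is not given in the sources used here, so reads of overlapping genes may not be separable.

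The ratio of the deposited FPKM, PDP to control, was put on a log2 scale without a pseudocount. Expressed genes were tested by the authors and had a geometric mean FPKM of at least 1. No test across libraries was possible. Medians and counts of the list are descriptions. Members and lists were chosen with earlier results of these data known. Values are given for every called member and the 2 members of highest control FPKM in each subcomplex, and for up to 4 called genes per further list and time, by size of change. Other members, AURKB, BUB1, HJURP, CENPX, MYBL2, LIN54, PLK1 at 24 h, UBE2C at 72 h, and CCNA2 and AURKA at 72 h stand outside this rule and were chosen after their values were seen. Locus starts, counted from 0 in the tables, were raised by 1. Promoters are RefSeq sequences of GRCh38.p14, whose chromosome coordinates were taken as those of GRCh38.p7. Of the members alone in their locus with a promoter, all but CENPI had a RefSeq start within 103 bases of the locus end. Alternatives covered the q threshold (0.01), the size of change (1 on the log2 scale), the FPKM minimum (5), the pseudocount (1), the scaling and the peak settings. Steps were tested on simulated data. Python 3.11.15, NumPy 2.4.6, pandas 2.3.3 and Matplotlib 3.10.9 were used.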

Additional observations from a re-analysis of the deposited data

How the results depend on the processing

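No paired analysis was possible because the tables hold 1 pooled value per condition, and for the same reason no replicate could be left out. Of 54 recomputed counts and medians, 43 stayed close to the reported value (counts within 1.5 times, medians within 0.1). Some of these could not move, such as the counts of 0 at 3 h and the values with an FPKM minimum of 5, which every member passed. All 54 recomputed fold changes of called members kept their direction and stayed within 1 SE. For the scalings this was fixed in advance, since they shift a gene by at most 0.17. The smallest SE of a member at 24 h and 72 h was 0.20. At a q under 0.01 the lower calls at 24 h were 4 in place of 7 and the higher calls at 72 h 2 in place of 4. With a log2 change of at least 1 in size, 1 member was called lower at 24 h, and 2 lower and 1 higher at 72 h. Equal FPKM sums moved the median to -0.12 at 24 h, where the reported one is -0.28, and to -0.085 at 72 h, where it is 0.019. Setting the median of expressed genes to 0 also moved the 72 h median below 0 (-0.088). The upper part of peaks by score left 18 of 45 peaks in member loci and 1 member with a peak near a locus end. A window of 1 kb also left 1 with locus ends, and 0 with RefSeq starts. The use of RefSeq starts and of tested genes in the members' FPKM range was added after seeing the data. The cause of these shifts was not tested. Depth is unknown, and SEs of 1 or more limit CENPP, CENPE and ZWILCH.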
